A study of Homo sapiens with 6 samples.

Results

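The BCL2 family of apoptosis regulators was examined in Huh7 cells, an established human hepatoma cell line, by RNA sequencing of total RNA. The 10 genes were taken by symbol from a table of 50868 genes, and all 10 were found. 3 of them are pro-survival (BCL2, BCL2L1 and MCL1). The other 7 are pro-death, namely the effectors BAX and BAK1 and the BH3-only genes BCL2L11, BID, BAD, BBC3 and PMAIP1. 3 libraries came from cells that received a plasmid overexpressing hsa_circ_0098181, a circular RNA made from exons of SOX5. The other 3 libraries are controls that were given the control plasmid, and RNA was taken from all 6 samples 48 hours after delivery by lipofection. The study scored apoptosis after this treatment, and the comparison asks whether transcripts of the family differed between the groups. All values belong to 1 cell line in transient culture, no sorting of the cells that took up plasmid is described, and no source says whether the 3 libraries of a group came from separate cultures. The p-values therefore measure the spread between these libraries, which may be technical. In bulk RNA a loss of cells and less RNA per cell cannot be told apart.

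Proteins of this family decide whether the outer mitochondrial membrane stays intact. BAX and BAK1 form pores in it, and the pores release cytochrome c, which starts the caspase cascade. BCL2, BCL2L1 (BCL-XL) and MCL1 bind and restrain the effectors. The BH3-only proteins act upstream: BCL2L11 (BIM), BID and BBC3 (PUMA) bind all pro-survival proteins and can activate the effectors, whereas BAD binds BCL2 and BCL-XL and PMAIP1 (NOXA) binds mainly MCL1. Hepatocytes are known to depend on BCL-XL and MCL1. Much of the control of these proteins lies in phosphorylation, cleavage and degradation, which transcript counts do not show.

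The circle was studied as a sponge of hsa-miR-18a-3p, so the microRNA and its seed matches in the family's 3′ UTRs are shown first. The mature microRNA (RefSeq, GRCh38.p14, chr13:91350797-91350819, plus strand) is printed 5′ to 3′ with its seed, bases 2 to 8, in capitals.
hsa-miR-18a-3p: aCUGCCCUaagugcuccuucugg
A match is the heptamer AGGGCAG, the reverse complement of the seed, searched on the transcript strand of the 3′ UTR of the transcript with the longest coding sequence in GENCODE 29. 3 of the 10 genes held 1 match each, and these 3 are printed with the heptamer in capitals.
BCL2L11: tggaactgattaaaAGGGCAGa
BCL2L1: tacctcaggcaggaAGGGCAGg
BCL2: cagggatgatcaacAGGGCAGt
The matches lie at chr2:111164840-111164846 on the plus strand for BCL2L11, at chr20:31664983-31664989 on the minus strand for BCL2L1 and at chr18:63127558-63127564 on the minus strand for BCL2 (GRCh38). BCL2L1 and BCL2 are pro-survival and BCL2L11 is pro-death, so matches stood on both sides of the family. MCL1, BAX, BAK1, BID, BAD, BBC3 and PMAIP1 held no such heptamer in this window. Among 12580 tested coding genes, 16.2% held at least 1 match. Of longer 3′ UTRs a larger share held one. The length was set at the 1497 bases of BCL2L1, the shortest among the members with a match. Of the 4712 genes with at least that length 29.7% held a match, and so did 3 of the 4 such family members. This choice of length keeps every member with a match, so the share of the members cannot be compared with that of all genes. A match is a description of letters, not a measured binding site.

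Total gene counts ran from 11130902 to 14138262 per library. SOX5, the gene whose exons the circle holds, was at 1905 to 2396 CPM (counts scaled by library size to a fixed total) with overexpression and at 31.3 to 41.8 CPM with the control plasmid, so the libraries matched their labels. All 9 hepatocyte markers examined, AFP and ALB among them, exceeded 1 CPM in every library, with summed levels of 31548 to 34286 CPM and 30666 to 36576 CPM in the overexpression and control groups. The 10 markers of other cell types summed to 73.9 to 74.9 CPM and 66.4 to 78.9 CPM, most of it PECAM1. Control replicate 1 had the highest mitochondrial share of counts, 9.29% against 6.32% to 7.04% in the other 5 libraries. It also held the lowest level of 6 of the 9 tested family genes. The share of all tested genes that were lowest in this library was not computed. Without this library the fitted log2 fold change was -0.11 for MCL1, 0.00031 for BID, -0.39 for BBC3 and -0.12 for PMAIP1, beside the values over all libraries given with each gene. The part of the mitochondrial share in these values was not tested.

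The pro-survival genes BCL2L1 and MCL1 were the most abundant members and BCL2 was close to absent. Per length, as CPM per kilobase of merged exons, BCL2L1 stood at a median of 64.7 over the 6 libraries (57.9 to 71.5) and MCL1 at 56.8 (54.3 to 60.9). Their ranges overlapped, but within each library MCL1 lay below BCL2L1, at 0.810 to 0.983 times its level. BAX followed at 16.0 (10.6 to 17.6), BAK1 at 15.6 (11.8 to 17.8) and BID at 12.9 (12.0 to 14.3), and the neighbours among these 3 also overlapped. BCL2L11 at 3.95 (0.777 to 5.18), PMAIP1 at 3.54 (2.97 to 4.53) and BAD at 2.74 (2.05 to 4.45) formed a lower tier whose neighbouring ranges overlapped too. BBC3 had a lower median of 1.23 (0.808 to 1.45), with a range that overlapped that of BCL2L11 and lay under those of PMAIP1 and BAD, and BCL2 was last at 0.0208 (0 to 0.0421). BCL2L1 exceeded 95.5% of the 15055 tested genes on this scale, and BBC3 only 20.3%. By the mean of the deposited FPKM values, with the gene lengths behind them, BAX and BAK1 exchanged places. BCL2L11 and PMAIP1 also did, but not through length alone. Per kilobase of merged exons their means, 3.31 and 3.65, already stood in the reverse order of their medians.

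**Figure D1:**
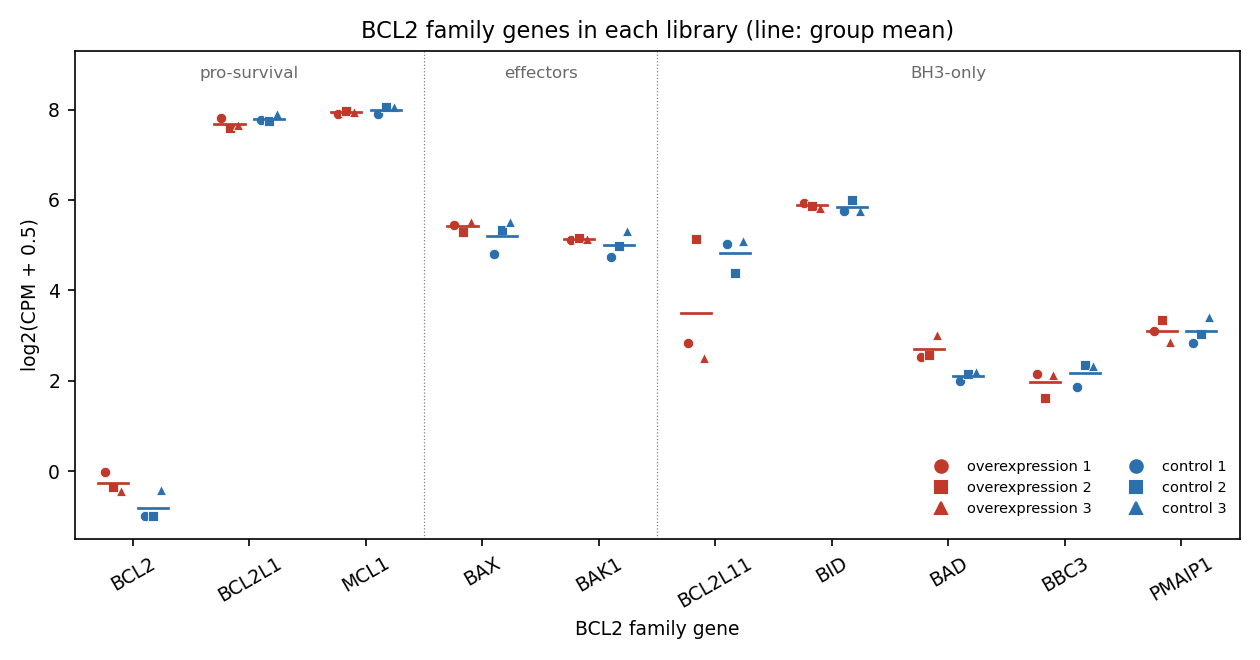
Level of each BCL2 family gene in the 6 libraries, as log2(CPM + 0.5) on the vertical axis, with genes grouped by role on the horizontal axis. Symbols mark replicates, colours mark groups and short lines are group means. BCL2L11 is split within the overexpression group, where replicate 2 at 34.5 CPM stands just above the highest control at 33.5 CPM.

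Neither abundant pro-survival gene showed a detectable difference. MCL1 (ENSG00000143384, chr1:150574551-150579738 in GRCh38) was at 239, 249 and 247 CPM in replicates 1 to 3 with overexpression and at 237, 264 and 266 CPM in the controls, an order kept throughout. The groups overlapped, because control replicate 1 lay below every overexpression library. The log2 fold change was -0.06 ± 0.08 (SE) with a 95% interval from -0.25 to 0.13 (edgeR adjusted p = 0.883), which corresponds to a ratio between 0.84 and 1.09. BCL2L1 (ENSG00000171552, chr20:31664452-31723989) was at 224, 192 and 203 CPM with overexpression and at 216, 213 and 237 CPM in the controls. Here overexpression replicate 1 lay among the controls and the other two overexpression libraries below them. The log2 fold change was -0.11 ± 0.09 (SE) with an interval from -0.32 to 0.11 (edgeR adjusted p = 0.830). MCL1 and BCL2L1 had the narrowest intervals of the 9 tested genes and the most counts, 2340 to 3489 per library.

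BCL2 (ENSG00000171791, chr18:63123346-63320128), the founding member and an inhibitor of apoptosis, was too low to be tested. It had 7, 4 and 3 counts with overexpression and 0, 0 and 3 counts in the controls. A floor of 3 counts corresponds to 0.212 to 0.277 CPM in these libraries, so most values stood at or under it. The summed counts of 14 against 3 gave a ratio of 4.0 after scaling to library size, with an exact 95% interval from 1.12 to 21.7, which covers counting error alone. The gene is therefore reported as counts, and no direction is drawn from it.

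The pore-forming effectors overlapped between the groups. BAX (ENSG00000087088, chr19:48954815-48961798) was at 42.9, 38.7 and 45.5 CPM with overexpression and at 27.4, 39.8 and 44.8 CPM in the controls. BAK1 (ENSG00000030110, chr6:33572547-33580293) was at 34.0, 35.5 and 34.9 CPM and at 26.1, 31.2 and 39.3 CPM. In both genes the lowest value was that of control replicate 1. The other controls lay within the overexpression range for BAX and on either side of it for BAK1. The log2 fold change was 0.18 ± 0.18 for BAX (SE, 95% interval -0.22 to 0.58, edgeR adjusted p = 0.839). For BAK1 it was 0.11 ± 0.15 (SE, interval -0.23 to 0.45, edgeR adjusted p = 0.883). Without control replicate 1 these values were 0.0028 and -0.018, and without control replicate 3 they were 0.33 and 0.28. The size of the difference therefore depended on which control was kept. BAX and BAK1 followed each other over the libraries (r = 0.89 over 6 libraries, the highest of 36 pairs of members, which had a median of 0.17). Control replicate 1 was the lowest point for both genes, and r without it was not computed. The 6 points share their library depths and scaling, and this r is a description only.

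BCL2L11, which encodes the BH3-only activator BIM, had the widest spread of the tested members. BCL2L11 (ENSG00000153094, chr2:111119378-111168447) had 94, 483 and 64 counts with overexpression and 350, 238 and 407 in the controls. As CPM these were 6.65, 34.5 and 5.17 against 32.3, 20.3 and 33.5. Overexpression replicates 1 and 3 lay below all controls and replicate 2 lay above them all. The log2 fold change over the 6 libraries was -0.89 ± 0.62 (SE) with an interval from -2.32 to 0.54 (edgeR adjusted p = 0.797). Without overexpression replicate 2 it was -2.27 ± 0.27 (SE) with an interval from -2.90 to -1.65, and the edgeR adjusted p was 0.0429. In that fit of 2 against 3 libraries BCL2L11 was the 1 member that passed, beside 0.0587% of all genes called lower there, so the call for this gene rests on whether 1 library is kept. As CPM + 0.5, its values spread 6.17-fold within the overexpression group, and 0.141% of the 9953 genes with a mean of at least 10 CPM spread more widely there. The median gene spread 1.15-fold in that group. No gene of the table that overlaps BCL2L11 had as many as 10 counts summed over the libraries. The cause of the split was not tested.

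BAD was the 1 member whose groups did not overlap. BAD (ENSG00000002330, chr11:64269830-64284704), a BH3-only protein held inactive by phosphorylation and 14-3-3 proteins, had 74, 76 and 94 counts with overexpression and 38, 46 and 50 in the controls. As CPM these were 5.24, 5.42 and 7.59 against 3.51, 3.92 and 4.11. All 3 overexpression libraries lay above all 3 controls, and replicate 3 stood highest. The means were 6.09 ± 1.31 and 3.85 ± 0.31 CPM (SD, n = 3 each). The log2 fold change was 0.66 ± 0.22 (SE) with a 95% interval from 0.16 to 1.15. In edgeR the unadjusted p was 0.0152 and the adjusted p 0.797, so BAD did not pass the correction over 15055 genes. The exact two-sided permutation test gave p = 0.1, the smallest that 3 against 3 values allow. Groups that do not overlap, with overexpression higher, were found for 6.4% of all genes tested, and 2.42% had an unadjusted p under 0.05 in that direction. BAD shares 404 of its 1708 exonic bases with GPR137 on the other strand, and the handling of strand is not given in the sources used here. GPR137 was at 8.50, 8.78 and 9.94 CPM against 9.60, 7.92 and 8.56 CPM, so its groups overlapped. With the counts of both genes summed, the log2 fold change was 0.27.

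The remaining BH3-only genes overlapped between the groups. BID (ENSG00000015475, chr22:17734138-17774770), which caspase-8 cleaves to link death receptors to mitochondria, was at 61.0, 57.9 and 56.5 CPM with overexpression and at 53.2, 63.5 and 53.5 CPM in the controls. Its log2 fold change was 0.043 with an interval from -0.20 to 0.28 (edgeR adjusted p = 0.938). PMAIP1 (ENSG00000141682, chr18:59899948-59904306) was at 8.14, 9.63 and 6.71 CPM against 6.64, 7.66 and 10.1 CPM. Its libraries were interleaved, with a log2 fold change of 0.0027 and an interval from -0.49 to 0.49 (edgeR adjusted p = 0.999). BBC3 (ENSG00000105327, chr19:47220822-47232766), a BH3-only activator, was at 3.96, 2.57 and 3.88 CPM against 3.14, 4.60 and 4.53 CPM. Its log2 fold change was -0.24 with an interval from -0.83 to 0.35 (edgeR adjusted p = 0.853). BBC3 had only 34 to 56 counts per library, and its interval allows a ratio from 0.56 to 1.27.

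**Figure D2:**
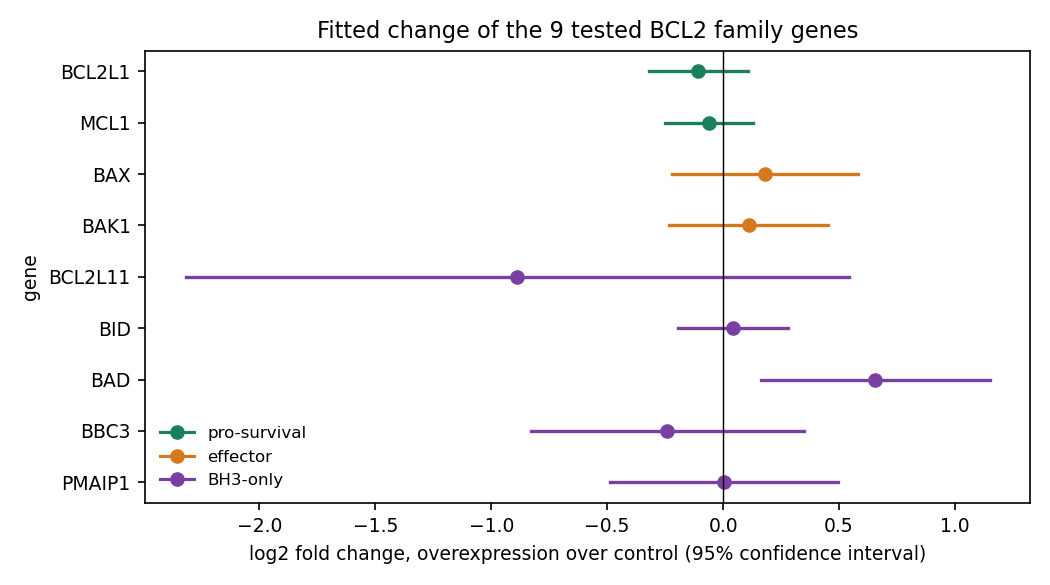
Fitted log2 fold change of overexpression over control (points) with its 95% confidence interval (lines) for the 9 tested genes, coloured by role. The intervals of all genes but BAD contain 0, and that of BCL2L11 is the widest, from -2.32 to 0.54.

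Over the family, 9 of 10 genes passed the filter on low counts and 0 passed an adjusted p of 0.05 in edgeR or DESeq2, and 0 of the 8 with a value in limma on FPKM. Of all genes tested, 0.0399% passed that threshold in edgeR. At an unadjusted p under 0.05 edgeR gave 1 member higher (BAD) and 0 lower, where 3.08% of all genes were lower at that level. The groups did not overlap for 1 member, with overexpression higher, and for 0 with overexpression lower, a pattern seen in 6.5% of all genes. 5 members had a fitted log2 fold change above 0 and 4 below, where 50.5% of all genes lay above 0. The median was 0.0027 for the tested members and 0.0023 for all genes. BCL2, which failed the filter, is not in these numbers.

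**Figure D3:**
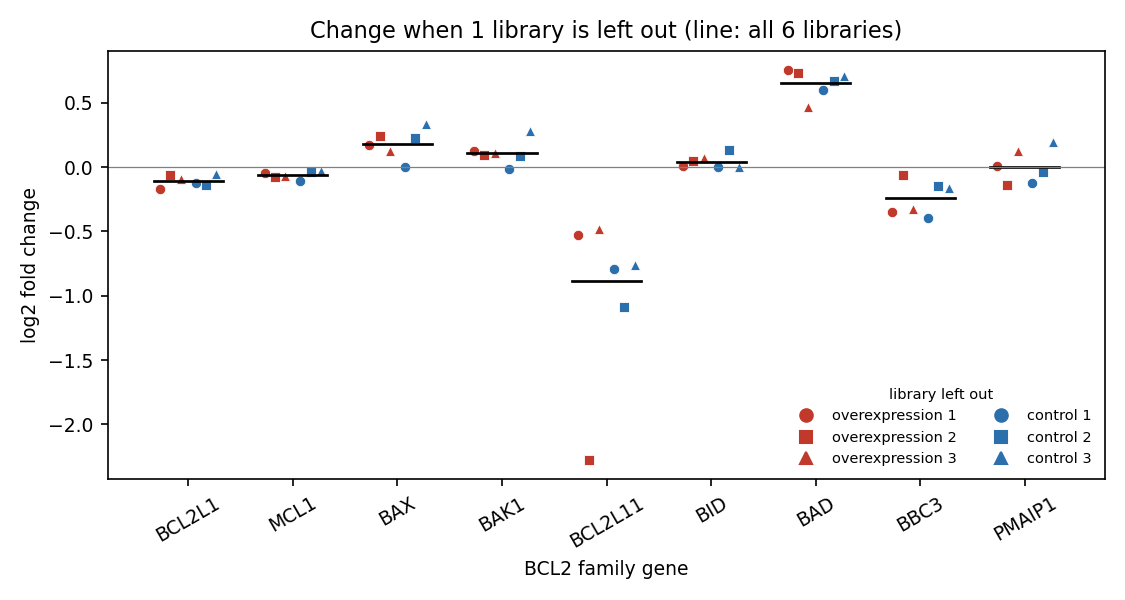
Log2 fold change of each tested gene when 1 library is left out (points, coloured by the group and shaped by the replicate that was left out) and with all 6 libraries (lines). Most points lie near their line. BCL2L11 moves to -2.27 without overexpression replicate 2.

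The balance of pro-survival against pro-death transcripts was taken in each library as the mean log2(CPM + 0.5) of the 3 pro-survival genes minus that of the 7 pro-death genes. It was 1.36, 0.93 and 1.21 with overexpression and 1.02, 0.90 and 0.95 in the controls. The groups overlapped, since overexpression replicate 2 lay among the controls. The means were 1.17 ± 0.22 and 0.96 ± 0.064 (SD, n = 3 each), a difference of 0.21 toward the pro-survival side. The difference rested on BCL2L11 and on BCL2, each of which took it away when left out alone. Without BCL2L11 the means were 1.09 ± 0.10 and 1.09 ± 0.13, a difference of -0.0010, and without BCL2 the difference was -0.00073. With a larger pseudocount, as log2(CPM + 2), it was 0.075. Without both genes the balance was 3.81, 3.80 and 3.73 against 4.16, 3.92 and 3.89. The groups then no longer overlapped and the difference was -0.21, toward the pro-death side. It was -0.12 without control replicate 1 and -0.26 without control replicate 3. Leaving out BCL2 alone was planned, as it failed the filter on low counts. Leaving out BCL2L11, or both genes, was chosen after the data were seen. Each gene had moved the difference toward the pro-survival side, and the shift on leaving both out followed from that. The direction of the balance therefore depended on which genes entered it. No test was made of a score over these members.

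**Figure D4:**
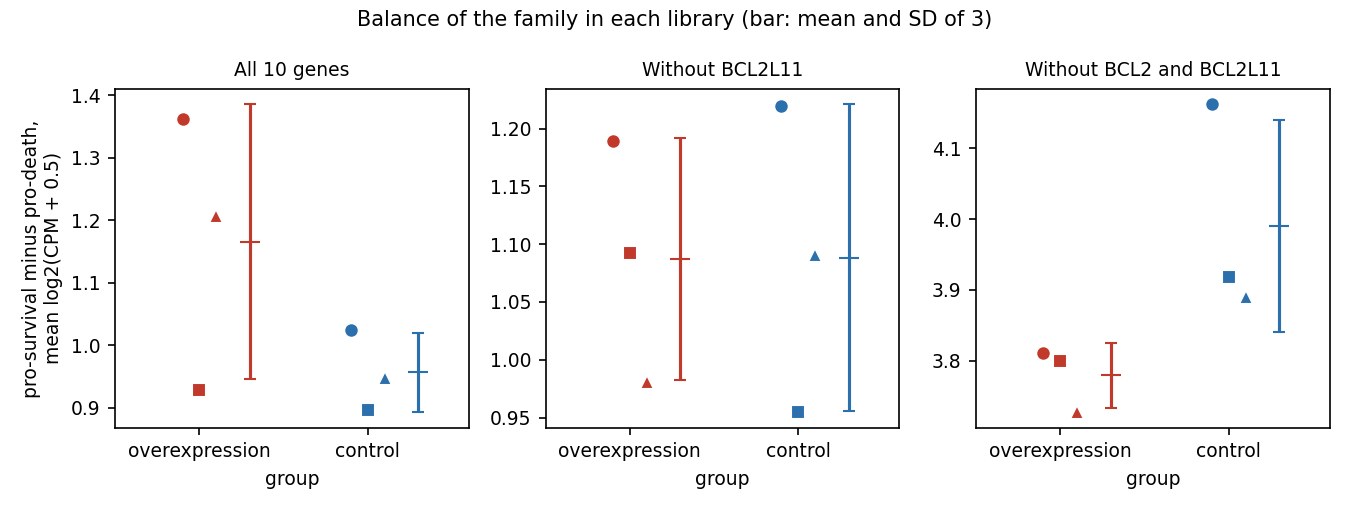
Mean log2(CPM + 0.5) of pro-survival minus pro-death genes in each library (points) with the mean and SD of 3 libraries (bars), for all 10 genes, without BCL2L11, and without BCL2 and BCL2L11. Each panel has its own vertical scale. The difference between groups is 0.21 in the first panel, -0.0010 in the second and -0.21 in the third.

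Summed levels weight the abundant genes more. Of the family's summed reads per kilobase, pro-survival genes held 69.1%, 66.7% and 68.0% with overexpression and 72.5%, 69.8% and 68.6% in the controls. Effectors held 18.1%, 18.0% and 19.3% against 13.6%, 16.5% and 18.2%, and the BH3-only genes 12.8%, 15.4% and 12.8% against 13.9%, 13.7% and 13.2%. All 3 shares overlapped between the groups, and the lowest effector share and the highest pro-survival share were those of control replicate 1. The summed pro-survival genes exceeded the summed pro-death genes 2.24, 2.00 and 2.12 times with overexpression and 2.64, 2.31 and 2.19 times in the controls.

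Ratios of known binding partners, on the same scale per length, add to this. BCL2L1 exceeded BAX 4.07, 3.87 and 3.48 times with overexpression and 6.15, 4.18 and 4.13 times in the controls. The groups did not overlap, but the gap between overexpression replicate 1 and control replicate 3 was small against the spread within either group. BCL2L1 exceeded BAD, which it binds, 22.0, 18.2 and 13.8 times against 31.7, 28.0 and 29.7 times, without overlap. The groups did not overlap for BAD by itself either, and the share of other gene pairs without overlap was not computed. MCL1 exceeded PMAIP1 15.0, 13.2 and 18.9 times against 18.3, 17.6 and 13.5 times, and these groups overlapped. MCL1 exceeded BAK1 3.56, 3.55 and 3.59 times against 4.60, 4.28 and 3.43 times, again with overlap. BCL2L1 exceeded BCL2L11 67.6, 11.2 and 78.7 times against 13.4, 21.1 and 14.2 times, with overlap. Its mean log2 difference of 1.29, and that of 1.34 for MCL1 over BCL2L11, which also overlapped, lay in the direction opposite to those of BCL2L1 over BAX (-0.32) and over BAD (-0.75). The ratios carry the same values as the single genes and were not tested.

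15 further genes of the family were examined, of which 11 were tested. The pro-survival genes BCL2A1 and BCL2L10, the BH3-only gene BIK and BCL2L15 were too low. 0 of the 11 passed an adjusted p of 0.05 in edgeR or DESeq2, and 0 of the 9 with a value in limma. At an unadjusted p under 0.05 in edgeR 1 was higher and 1 lower, beside 2.42% and 3.08% of all genes. The median log2 fold change was 0.054, beside 0.0023 for all genes. BCL2L13 (ENSG00000099968), a mitochondrial protein also known as a mitophagy receptor, was at 102, 96.6 and 99.9 CPM with overexpression and at 121, 124 and 125 CPM in the controls. All overexpression libraries lay below all controls, with a log2 fold change of -0.30 ± 0.08 (SE) and an unadjusted edgeR p of 0.0047 (adjusted p = 0.797). HRK (ENSG00000135116), a BH3-only gene, had 16, 16 and 21 counts against 10, 8 and 5, with a log2 fold change of 0.97 ± 0.39 (SE, edgeR adjusted p = 0.797). BCL2L12 (ENSG00000126453), an atypical member, was at 30.1, 31.1 and 28.2 CPM against 19.3, 27.8 and 27.2 CPM without overlap. Its log2 fold change was 0.27 (edgeR adjusted p = 0.797), or 0.12 without control replicate 1 and 0.36 without control replicate 2. BCL2L12 shares 734 of 2216 exonic bases with IRF3 on the other strand. BCL2L2 (BCL-W), a pro-survival gene, split within both groups, at 20.7, 4.42 and 6.22 CPM against 19.4, 7.75 and 28.0 CPM. Its log2 fold change was -0.81 ± 0.60 (SE, edgeR adjusted p = 0.805), and it was -0.51 with the counts of the read-through gene BCL2L2-PABPN1 added. It was -1.79 without overexpression replicate 1 and -0.36 without control replicate 3, the widest values when 1 library was left out.

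The 17 genes that act after the family at the mitochondrion, from VDAC channels and cytochrome c to caspases and their inhibitors, were all tested. 0 passed an adjusted p of 0.05 in edgeR or DESeq2, and 0 of the 15 with a value in limma. At an unadjusted p under 0.05 in edgeR 0 were higher and 2 lower, where 2.42% and 3.08% of all genes were. 13 had a log2 fold change above 0, a sign held by 50.5% of all genes, and the median was 0.081 beside 0.0023 for all genes. XIAP (ENSG00000101966), an inhibitor of caspases, was at 13.2, 11.6 and 19.3 CPM with overexpression and at 48.6, 29.7 and 17.1 CPM in the controls. Control replicate 3 lay among the overexpression libraries, and the log2 fold change was -1.11 ± 0.35 (SE, edgeR adjusted p = 0.797). Without control replicate 1 it was -0.67. The other gene at an unadjusted p under 0.05 was the related inhibitor BIRC3, at 1.20 to 2.42 CPM against 2.80 to 3.88 CPM, named after its values were seen. CASP6, an executioner caspase, was at 28.1, 26.8 and 28.9 CPM against 23.3, 21.5 and 25.5 CPM without overlap. Its log2 fold change was 0.25 ± 0.11 (SE, edgeR adjusted p = 0.797). BIRC5 (survivin) had the highest log2 fold change of this list, 0.42 ± 0.19 (SE, edgeR adjusted p = 0.797), and its groups overlapped. The value was 0.27 without control replicate 1, and it ran from 0.23 to 0.56 when 1 library was left out.

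24 regulators of the family were all tested in edgeR, and 0 passed an adjusted p of 0.05. DESeq2 gave 23 of them an adjusted p, all but MYC, and limma 22, and 0 passed in either. In edgeR 2 were higher and 2 lower at an unadjusted p under 0.05, beside 2.42% and 3.08% of all genes, and the median log2 fold change was -0.017, beside 0.0023 for all genes. FOXO3 (ENSG00000118689), a transcription factor that induces BCL2L11, was at 56.4, 36.5 and 35.1 CPM with overexpression and at 69.0, 60.0 and 58.4 CPM in the controls, without overlap and with a log2 fold change of -0.55 ± 0.18 (SE, edgeR adjusted p = 0.797). The highest overexpression library was replicate 1 for FOXO3 and replicate 2 for BCL2L11, and the lowest was replicate 3 for both. Both genes had a fitted change below 0, and a link between them was not tested. E2F1 (ENSG00000101412) was at 71.6, 75.0 and 66.7 CPM against 48.9, 61.4 and 60.4 CPM, with a log2 fold change of 0.32 (edgeR adjusted p = 0.797).

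MYC (ENSG00000136997), which sensitizes cells to apoptosis, was at 2.69, 77.9 and 3.23 CPM with overexpression and at 2.77, 2.90 and 5.51 CPM in the controls. Overexpression replicate 2, the library with the high BCL2L11 value, was the only library above 5.51 CPM. The log2 fold change was 2.90 ± 1.22 (SE, edgeR adjusted p = 0.797), and it was -0.34 without that library. MYC spread more widely within the overexpression group than all but 0.0402% of the 9953 genes compared.

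**Figure D5:**
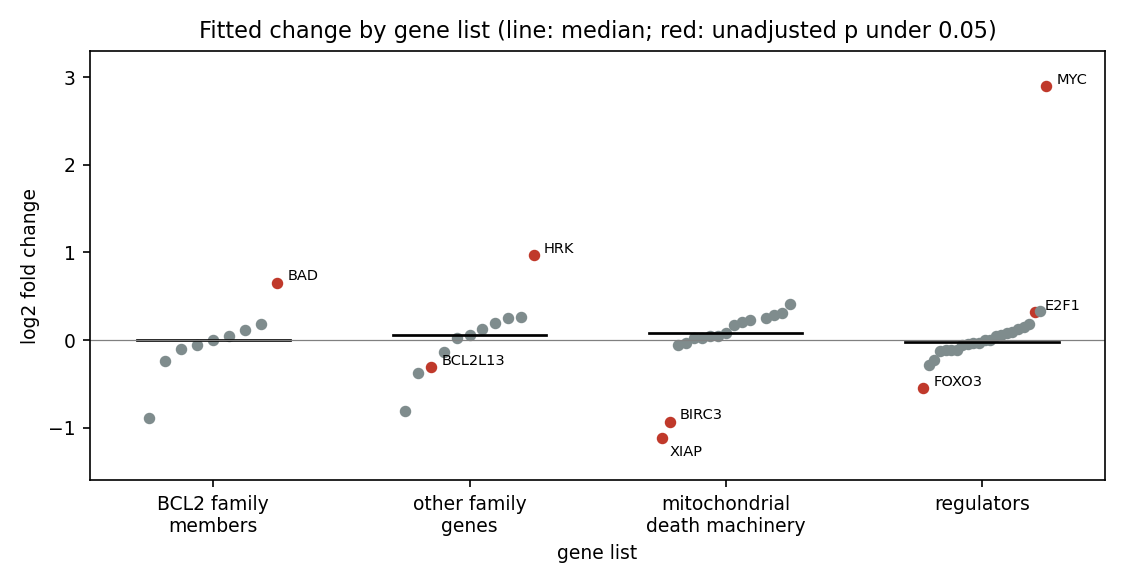
Fitted log2 fold change of tested genes (points) by gene list, with the median of all tested genes of the list (line). Points with an unadjusted p under 0.05 are red and named, none passed the adjusted threshold, and genes not reported here are not drawn. MYC at 2.90 rests on overexpression replicate 2.

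The genes whose levels followed 3 main members most closely were found by Pearson's r of log2(CPM + 0.5) over the 6 libraries among 9952 other genes with a mean of at least 10 CPM. They were TECPR1 (r = 0.996) and OSBPL11 (r = 0.987) for MCL1, VPS11 (r = 0.989) and GALC (r = 0.981) for BCL2L1, and ALG5 (r = 0.998) and GTSF1 (r = 0.997) for BAX. With 6 points and this many genes such values are a description, and the points share library depth and scaling. In the table's pathway annotation all 10 members belong to the KEGG apoptosis pathway, to which 111 tested genes belong.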

How the data were processed

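The authors deposited a single table that gives every gene's unnormalized read counts and FPKM values in each library. TopHat2 2.0.9 and hg38 are named in the submitters' processing notes. The counting tool, annotation release and strand setting are not given in the sources used here. All 10 members had identical coordinates in GENCODE 29 (GRCh38). Groups came from sample titles. The members and gene lists were chosen with earlier results of these data known.

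The whole count table was fitted with edgeR 4.0.16 under R 4.3.3: filterByExpr (minimum count 10), TMM, the quasi-likelihood test with group as its 1 term, two-sided, and Benjamini-Hochberg adjustment over 15055 genes. CPM used TMM-scaled totals of tested genes. Standard errors and 95% intervals follow from its F statistic. Exact permutation tests used log2(CPM + 0.5). Levels were compared between genes per kilobase of merged GENCODE 29 exons. Alternatives were RLE or upper-quartile scaling, DESeq2 1.42.0, other count filters, limma 3.58.1 on log2(FPKM + 1) of the authors' values, a replicate block, and the loss of any single library. Summing overlapping genes and leaving BCL2L11, or BCL2 and BCL2L11, out of the balance were chosen after seeing the data. Named genes were all members, SOX5 and, from each other list, the 3 with the smallest unadjusted p at a mean of at least 10 CPM and those with the lowest and highest fold change, plus the 2 genes most correlated with MCL1, BCL2L1 and BAX. Some genes that this rule names are not reported here, but they remain in the counts and medians of their lists. The fits were tested on simulated data. Libraries of a group differed by 10.1 to 20.9 chi-square units per degree of freedom, far beyond sampling noise. Intervals and floors from counts cover counting error only.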

Additional observations from a re-analysis of the deposited data

How the results depend on the processing

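No member passed an adjusted p of 0.05 under any normalization, filter, tool or block, and leaving out 1 library gave 0 to 1 members past it, the 1 being BCL2L11 without overexpression replicate 2. The other 3 lists had 0 genes past it in every fit. The balance difference of 0.21 was -0.064 with summed CPM, -0.17 with summed FPKM, -0.00073 without BCL2, the member that failed the filter, -0.0010 without BCL2L11, -0.21 without both and 0.075 as log2(CPM + 2), and it ran from 0.11 to 0.33 when 1 library was left out. Leaving out 1 library moved BAK1 between -0.018 and 0.28, PMAIP1 between -0.14 and 0.19, MYC between -0.34 and 3.44, BCL2L11 between -2.27 and -0.48, BAX between 0.0028 and 0.33, BCL2L2 between -1.79 and -0.36 and BAD between 0.47 and 0.75. The adjusted p of BAD ran from 0.669 to 0.999 over all alternatives and that of BCL2L11 from 0.0429 to 0.999. With a replicate block BCL2L11 was at -1.36 and MYC at 1.49, and no call was gained or lost. Over all alternatives, 111 of 116 values of single members and 165 of 166 of the other named genes kept their direction and their side of the threshold. Same-numbered libraries did not deviate together (correlations of -0.036, -0.023 and -0.031 across genes). These values cannot tell whether such libraries were prepared together. BBC3, HRK, MYC and XIAP had no value under limma on FPKM, DESeq2 gave MYC no adjusted p, and BBC3 and HRK had no value with a mean of at least 50 counts. Depth limits BCL2, at 0 to 7 counts. BBC3, BAD and PMAIP1 had low counts, 34 to 135 per library, and wide intervals. The part of depth in that width was not tested.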
